A study of Oryctolagus cuniculus with 15 samples.

Results

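The 10 genes described here encode the machinery that licenses replication origins and travels with the replication fork: MCM2, MCM3, MCM4, MCM5, MCM6 and MCM7, CDC6, CDC45, PCNA and KIAA0101. They were chosen by symbol, with earlier results of these data known. The study had reported MCM genes, CDC6, CDC45 and PCNA as lower in fibrillar culture, from libraries used here. Calls among the 10 are therefore not an independent test of that. All 10 are among the 23428 genes of the count and FPKM tables. Levels are given as FPKM, fragments counted per length of gene and per size of library.

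Before a cell copies its DNA, the origin recognition complex, CDC6 and CDT1 load rings of MCM2 to MCM7 onto replication origins, a step called licensing. A loaded ring becomes an active helicase in S phase only if CDC45 and the GINS complex join it. PCNA is the sliding clamp that holds DNA polymerases on the template, and the product of KIAA0101, also named PCLAF, is a small protein that binds PCNA. Transcription of many of these genes rises under E2F factors as cells enter the cycle and is low in quiescent cells, the state usually attributed to keratocytes of the uninjured corneal stroma.

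The libraries are bulk RNA-seq of first-passage corneal keratocytes from New Zealand white rabbits, cultured in serum-free medium for 6 days. The 5 conditions hold 3 libraries each, and each library pools several dishes or matrices. Within a condition the 3 libraries come from separate experiments. Some libraries of different conditions share a prefix in their names, such as E3 in 2DC, 2DC_L and 3DF_50. Whether libraries that share a prefix came from the same experiment is not given, so the 15 libraries may not all be independent. In 2DC, cells lay on dishes coated with type I collagen and were incubated with digestion medium before lysis, and 2DC_L is the same culture lysed in the dish without digestion. In 2DF, cells lay on top of a fibrillar collagen matrix. In 3DF they were embedded in it at 100k cells per matrix, and in 3DF_50 at 50k. All fibrillar cultures were digested and the cells pelleted before lysis. Fibrillar and coated cultures therefore differ in substrate and in handling, and these cannot be told apart from the comparison of 2DC with the fibrillar conditions alone. The 6 libraries of 2DC and 2DC_L are called coated below, and the 9 libraries of the other conditions fibrillar.

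Library depth ran from 14626982 to 31804255 counted reads. The keratocyte label was checked with 6 markers, which were present in every condition with summed levels of 24518 to 31226 FPKM in coated and 20042 to 43020 FPKM in fibrillar libraries. Of 10 corneal epithelial markers, 8 were in the table, with sums of 0.0947 to 1.06 FPKM in coated and 0.102 to 13.2 FPKM in fibrillar libraries. KRT12 was at 0 in all coated libraries. The epithelial sums were 8.02 to 13.2 FPKM in 3DF, 0.731 to 6.30 FPKM in 2DF and 0.102, 0.138 and 6.38 FPKM in 3DF_50. The 5 epithelial genes that could be tested were called higher in fibrillar culture, where 545 of 14036 genes tested were called higher. KRT12 entered that test only through the fibrillar libraries. In 2DC vs. 2DC_L, 1 epithelial gene was high enough to be tested. The part of the epithelial genes in the results was not tested. The 8 immune markers summed to 2.22 to 5.36 FPKM in coated and 2.64 to 8.28 FPKM in fibrillar libraries, with CD163 and MS4A1 at 0 throughout. The 4 vascular endothelial markers summed to 30.7 to 60.8 FPKM in coated and 46.3 to 116 FPKM in fibrillar libraries, nearly all of it KDR, with a mean of 43.7 FPKM in coated and 76.0 FPKM in fibrillar libraries. VWF, the next of the 4, averaged 0.0753 and 0.125 FPKM. The part of these markers in the results was not tested. In bulk RNA, fewer cells of a type and less RNA per cell cannot be told apart.

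All 10 genes had a higher mean in both coated conditions than in any fibrillar condition. The highest mean was in 2DC_L for 7 genes and in 2DC for 3, and the lowest was in 2DF for 6, in 3DF for 3 and in 3DF_50 for 1. The ratio of the coated to the fibrillar mean ran from 1.37 for MCM7 to 77.2 for KIAA0101. The levels by library show a wide spread within 2DC: replicate 1 was the lowest of the 6 coated libraries for 10 of the 10 genes, and replicate 3 was the highest for 9 of them. For the 10 genes, counts of genes called, ratios and correlations that rest on 2DC are therefore also given without replicate 1. Without it, the ratio of the coated to the fibrillar mean ran from 1.46 to 89.1, and the highest mean was in 2DC for 9 genes and in 2DC_L for 1.

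**Figure D1:**
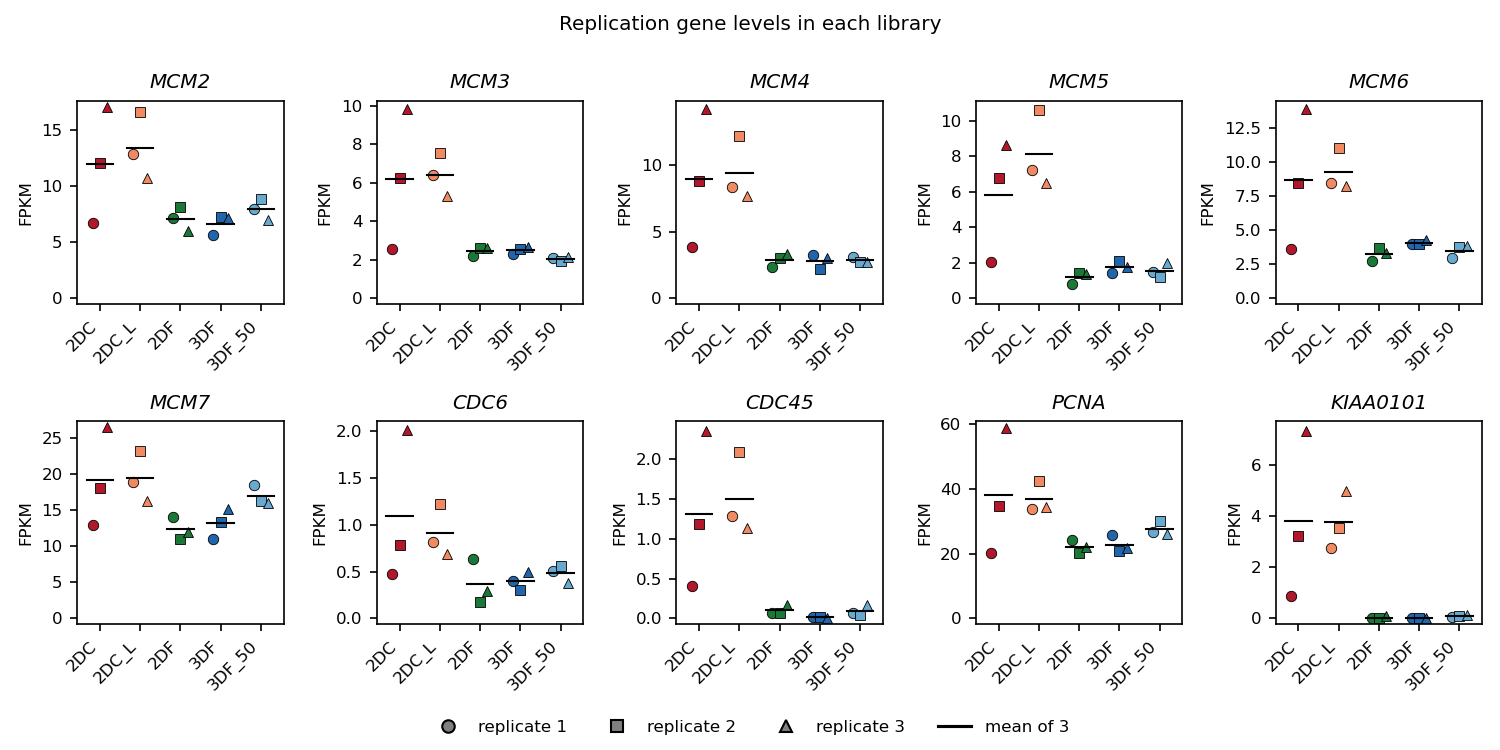
FPKM (vertical axis, linear, a separate scale per gene) of the 10 replication genes in each of the 15 libraries, by condition; symbols mark the replicate number and the line is the mean of the 3 libraries. Apart from MCM7, the fibrillar libraries lie low and closer together than the coated ones, 2DC replicate 1 lies lowest among the coated libraries, and MCM4, CDC45 and KIAA0101 show no overlap of coated with fibrillar libraries.

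Counts were tested with the quasi-likelihood method of edgeR. To be called a DEG, a gene needed a p of 0.05 or less after Benjamini–Hochberg adjustment over all genes tested and a log2 fold change of 1 or more in size. The contrast of the 3 fibrillar with the 2 coated conditions, in a fit of all 15 libraries, called 7 of the 10 replication genes lower in fibrillar culture, where 5.85% of all genes tested were called lower. The 7 were MCM3, MCM4, MCM5, MCM6, CDC6, CDC45 and KIAA0101. Of these, CDC45 and KIAA0101 entered the test only through their counts in the coated libraries. By the adjusted p alone, 10 of 10 were lower, against 20.8% of all genes. The median log2 fold change was -1.37 over the 10 genes and 0.02 over all genes. Without 2DC replicate 1, 7 genes were called, where 861 of 14294 genes tested were called lower, and the median over the 10 was -1.56.

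MCM4, a core helicase subunit (chromosome 3 of oryCun2, 62473676 to 62494708, plus strand), had levels of 3.82, 8.80 and 14.2 FPKM in 2DC and 8.36, 12.2 and 7.65 FPKM in 2DC_L. Its levels were 2.31, 3.03 and 3.28 FPKM in 2DF, 3.21, 2.21 and 3.00 FPKM in 3DF, and 3.12, 2.68 and 2.72 FPKM in 3DF_50. Every coated library lay above every fibrillar library, with 2DC replicate 1 just above the highest fibrillar value. The log2 fold change in the contrast was -1.68 (adjusted p = 6.89e-06 by edgeR, SE 0.21).

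MCM5 (chromosome 4, 86038243 to 86058072, minus strand), whose junction with MCM2 is the gate through which the ring opens, had the largest log2 fold change of the 6 subunits. Levels were 2.06, 6.77 and 8.63 FPKM in 2DC and 7.23, 10.6 and 6.51 FPKM in 2DC_L. In fibrillar culture they were 0.777, 1.41 and 1.39 FPKM in 2DF, 1.43, 2.08 and 1.73 FPKM in 3DF, and 1.45, 1.20 and 1.98 FPKM in 3DF_50. The groups overlapped only because 2DC replicate 1 lay just below the highest 3DF library. The contrast gave a log2 fold change of -2.21 (adjusted p = 2.25e-06 by edgeR, SE 0.25).

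MCM3 (chromosome 12, 41763845 to 41784260, minus strand) and MCM6 (chromosome 7, 73385015 to 73432625, minus strand), the other subunits called, gave the same picture. MCM3 had a lowest, median and highest level of 2.57, 6.31 and 9.85 FPKM in coated libraries and of 1.95, 2.30 and 2.66 FPKM in fibrillar libraries, with a log2 fold change of -1.43 (adjusted p = 2.23e-05 by edgeR, SE 0.20). MCM6 had 3.58, 8.47 and 13.9 FPKM in coated and 2.74, 3.72 and 4.23 FPKM in fibrillar libraries, with a log2 fold change of -1.31 (adjusted p = 5.70e-05 by edgeR, SE 0.20). In both genes 2DC replicate 1 was the only coated library inside the fibrillar range.

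MCM2 and MCM7 moved less. MCM2 (chromosome 9, 6677927 to 6697593, plus strand), a subunit that also binds histones, had a lowest, median and highest level of 6.71, 12.5 and 17.0 FPKM in coated and 5.59, 7.19 and 8.87 FPKM in fibrillar libraries. Its log2 fold change of -0.80 (adjusted p = 0.000609 by edgeR, SE 0.16) was under the limit of 1. MCM7 (unplaced scaffold Un0062, 97030 to 104025, plus strand) had levels of 13.0, 18.1 and 26.5 FPKM in 2DC and 18.9, 23.2 and 16.2 FPKM in 2DC_L. Its fibrillar levels were 14.0, 11.0 and 11.9 FPKM in 2DF, 11.0, 13.3 and 15.1 FPKM in 3DF, and 18.5, 16.3 and 15.9 FPKM in 3DF_50. Coated and fibrillar libraries overlapped widely for MCM7, with 3 of the 6 coated libraries at or below the highest fibrillar library. In the contrast the log2 change was -0.46 (adjusted p = 0.00941 by edgeR, SE 0.13), and with scaling by library size only it was -0.26 (adjusted p = 0.139). That scaling moved the median of all genes to 0.22.

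The 6 subunits form a ring with 1 copy of each, and their RNA levels per length are set side by side here as a description. RNA levels do not show the amounts of protein in the ring, which were not measured. Summed over MCM2 to MCM7, the level was 60.7 ± 29.2 FPKM in 2DC and 66.0 ± 13.7 FPKM in 2DC_L (SD, n = 3 each). The sum was 29.2 ± 0.772 FPKM in 2DF, 30.9 ± 3.20 FPKM in 3DF and 34.8 ± 1.22 FPKM in 3DF_50 (SD, n = 3 each). The fibrillar sums lay between 27.5 and 36.0 FPKM, and the lowest coated sum, 31.7 FPKM in 2DC replicate 1, fell among them. Without that library, the lowest coated sum was 54.6 FPKM. MCM7 was the highest subunit in every library, while MCM5 was the lowest in every fibrillar library. The highest subunit exceeded the lowest 2.90 to 6.28 times in coated libraries and 6.40 to 18.0 times in fibrillar libraries. In 2DC replicate 1, which set the upper coated value, the pair was also MCM7 and MCM5, and without that library the coated range was 2.90 to 3.07.

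**Figure D2:**
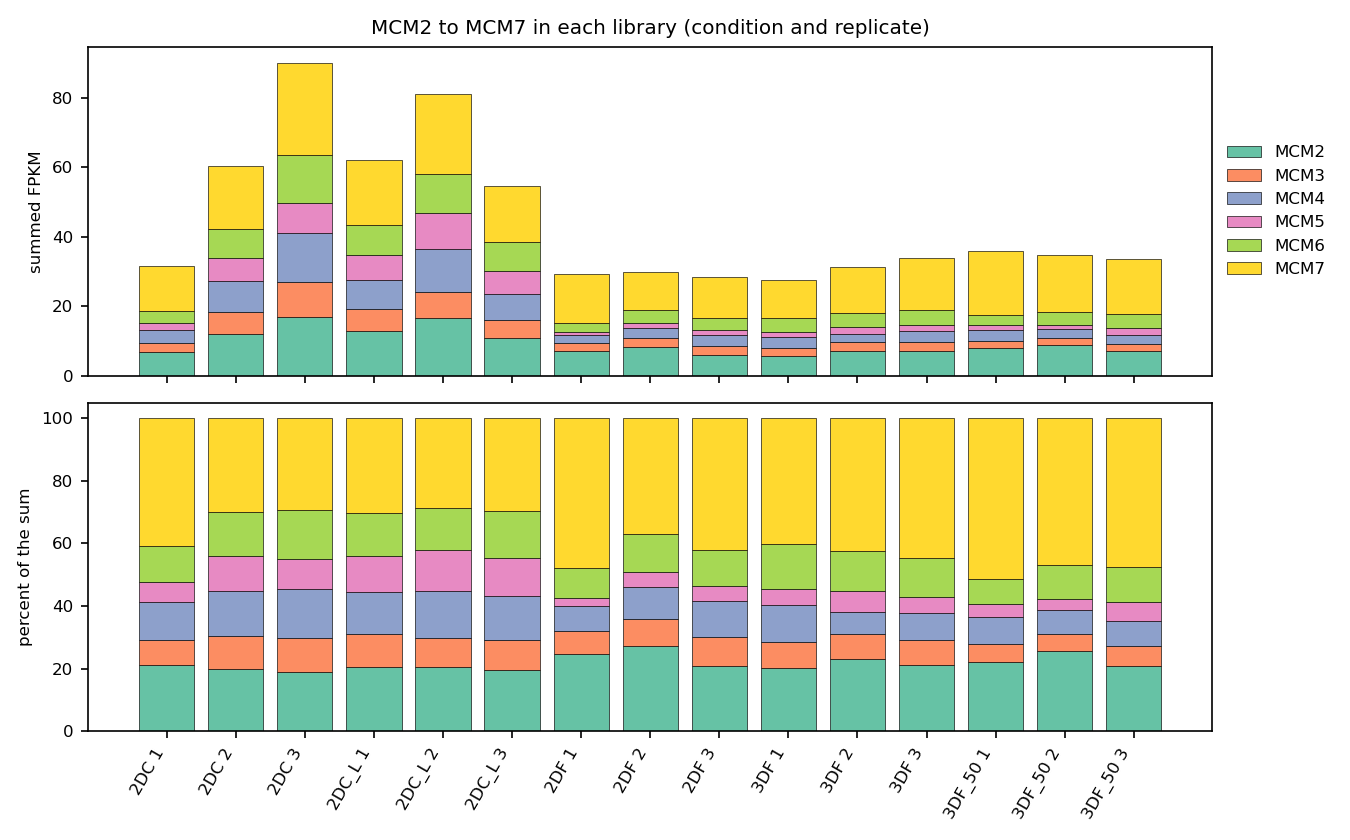
Stacked FPKM of MCM2 to MCM7 in each library (upper panel, summed FPKM) and the share of each subunit in that sum (lower panel, percent); bars are single libraries, labelled by condition and replicate. The mean share of MCM7 was 31.5% in coated and 44.4% in fibrillar libraries, and that of MCM5 was 10.7% and 4.73%.

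Of the loading and activation factors, CDC6 was low in every condition and CDC45 was close to undetected in fibrillar culture. CDC6, the loader that brings MCM rings to the origin (chromosome 19, 41451123 to 41467769, plus strand), had 0.477, 0.788 and 2.02 FPKM in 2DC and 0.821, 1.22 and 0.693 FPKM in 2DC_L. It had 0.640, 0.173 and 0.293 FPKM in 2DF, 0.397, 0.304 and 0.492 FPKM in 3DF, and 0.506, 0.564 and 0.376 FPKM in 3DF_50. Only 2DC replicate 1 lay inside the fibrillar range. Its log2 change in the contrast was -1.26 (adjusted p = 0.00338 by edgeR, SE 0.31).

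CDC45, the factor that turns the loaded ring into a working helicase (unplaced scaffold Un0288, 112069 to 151266, minus strand), had 28, 61 and 122 counts in 2DC and 87, 138 and 44 counts in 2DC_L. The fibrillar counts were 3, 3 and 7 in 2DF, 1, 1 and 0 in 3DF, and 3, 2 and 8 in 3DF_50. In FPKM the coated libraries ran from 0.407 to 2.36 and the fibrillar libraries from 0 to 0.174, without overlap. The contrast gave a log2 fold change of -4.68 (adjusted p = 3.01e-07 by edgeR, SE 0.43), a test that CDC45 entered only through its coated counts. Ratios of summed counts were scaled by library size times the TMM factor. By these, CDC45 was 97.5 times higher in 2DC than in 3DF (95% exact interval 26.7 to 810). It was 11.6 times higher in 2DC than in 2DF (6.67 to 22.2) and 12.4 times higher than in 3DF_50 (7.10 to 23.7). Without 2DC replicate 1 the ratios were 141 (38.4 to 1170), 16.8 (9.58 to 32.2) and 17.9 (10.2 to 34.3) in that order. These intervals cover counting error only.

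PCNA was the most abundant of the 10 genes per length in both coated and fibrillar culture. The gene (chromosome 4, 11721716 to 11726405, minus strand) had 20.3, 34.8 and 58.9 FPKM in 2DC and 33.7, 42.4 and 34.5 FPKM in 2DC_L. It had 24.1, 20.1 and 22.0 FPKM in 2DF, 25.8, 20.7 and 21.8 FPKM in 3DF, and 26.7, 30.0 and 26.2 FPKM in 3DF_50. Apart from 2DC replicate 1, every coated library lay above every fibrillar one. In the contrast the log2 change was -0.63 (adjusted p = 0.00425 by edgeR, SE 0.16), under the limit for a DEG.

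KIAA0101 was low in coated culture and close to undetected in fibrillar culture. Its counts were 36, 99 and 227 in 2DC and 111, 140 and 115 in 2DC_L. In the fibrillar libraries they were 0, 0 and 2 in 2DF, 1, 1 and 1 in 3DF, and 1, 2 and 4 in 3DF_50. Coated levels ran from 0.877 to 7.34 FPKM and fibrillar levels from 0 to 0.146 FPKM, with no overlap. Its log2 change in the contrast was -6.31 (adjusted p = 6.85e-08 by edgeR, SE 0.51). By summed counts scaled as for CDC45, KIAA0101 was 112 times higher in 2DC than in 3DF (95% exact interval 37.9 to 543). It was 130 times higher in 2DC than in 2DF (35.7 to 1077) and 39.5 times higher than in 3DF_50 (19.0 to 99.1). Leaving out 2DC replicate 1, these ratios were 167 (56.7 to 814), 195 (53.4 to 1613) and 59.2 (28.4 to 148). KIAA0101 (chromosome 17, 7844369 to 7863652, plus strand) lies within TRIP4 on the other strand, and whether counting used strand is not given in the sources used here. TRIP4 itself had 10.5 ± 0.661 FPKM in coated (SD, n = 6) and 10.9 ± 1.60 FPKM in fibrillar libraries (SD, n = 9). CDC45 and KIAA0101 passed the filter on low counts only through the coated libraries.

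MKI67, the proliferation marker Ki-67, followed the same division. It ran from 0.199 to 3.36 FPKM in coated libraries and from 0 to 0.0710 FPKM in fibrillar libraries, and 2DC replicate 1 again held the lowest coated value. Among the 10 replication genes no pair is independent, since all share the libraries and their sizes. Over the 45 pairs of genes the median Pearson correlation of log2(FPKM + 0.1) was 0.88 across all 15 libraries, 0.95 within the 6 coated and 0.06 within the 9 fibrillar libraries. It was 0.93 without 2DC replicate 1, within the 5 coated libraries left. Levels of the 10 genes thus went together among coated libraries, while among fibrillar libraries 24 of the 45 pairs had a positive correlation. Fibrillar levels spanned narrow ranges, such as 1.95 to 2.66 FPKM for MCM3 against 2.57 to 9.85 FPKM in coated libraries. CDC45 had at most 8 counts in a fibrillar library and KIAA0101 at most 4. Correlations over such ranges cannot show whether the genes still went together in fibrillar culture.

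Across the 10 genes, 3 had no overlap between the 6 coated and the 9 fibrillar libraries (MCM4, CDC45 and KIAA0101), where 6.88% of all genes tested had every coated library above every fibrillar one. Without 2DC replicate 1 the number was 9, against 8.34% of all genes, and MCM7 was the exception.

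For each pair of conditions, the comparison with 2DC asks how fibrillar collagen differs from a coating when digestion is shared. In 3DF vs. 2DC, 4 of the 10 genes were DEGs (MCM4, MCM5, CDC45 and KIAA0101), with 4.32% of all genes called lower. The number was 7 with DESeq2 or with all 5 conditions in 1 fit, and 2 with limma. Of the 4, CDC45 and KIAA0101 passed the low-count filter only through the coated libraries, as in every comparison of fibrillar with coated conditions. The same 4 were called in 2DF vs. 2DC, with 2.93% of all genes called lower, and these comparisons share the 2DC libraries. In 2DF vs. 2DC the number was 7 with all 5 conditions in 1 fit, 1 with limma on log2(FPKM + 1) and 0 with the prefix of the library names as a block. With that block, 16 of 14036 genes tested were called in either direction. In 3DF_50 vs. 2DC, MCM3 and MCM6 were called as well, for 6 genes against 7.33% of all genes. All 10 fold changes were negative in each of the 3 comparisons, but in 3DF_50 that of MCM7 turned to 0.16 with scaling by library size only and to 0.12 without 2DC replicate 3, and that of PCNA to 0.0088 without that library. MCM5 had a log2 fold change of -1.74 (adjusted p = 0.0363 by edgeR, SE 0.46) in 3DF, -2.27 (adjusted p = 0.0160 by edgeR, SE 0.49) in 2DF and -1.90 (adjusted p = 0.0118 by edgeR, SE 0.47) in 3DF_50.

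The 2DC counts depended on which library was left out. Without 2DC replicate 1, 9 genes were called in 3DF, 8 in 2DF and 7 in 3DF_50. MCM7 was called in none of these, CDC6 was not called in 2DF, and MCM2 and PCNA were not called in 3DF_50. Of all genes tested, 640 of 13800, 435 of 13374 and 1033 of 13543 were called lower in 3DF, 2DF and 3DF_50. Without any other library of 3DF vs. 2DC, 2 genes were called, with 434 to 554 of 13726 to 13870 genes tested called lower. Without 2DF replicate 1 or 2, 1 gene was called in 2DF vs. 2DC, without 2DC replicate 2 it was 2, and without 3DF_50 replicate 2, 3 genes were called in 3DF_50 vs. 2DC. Genes called lower among all tested were 212 of 13683 and 313 of 13666, 237 of 13355, and 870 of 13871 in that order.

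The comparison with 2DC_L, where the 3 coated libraries lay closer together, differs from the fibrillar conditions in digestion as well as substrate. In 3DF vs. 2DC_L, 8 genes were DEGs, all but MCM7 and PCNA, where 5.98% of all genes were called lower. In 2DF vs. 2DC_L, 6 genes were called (MCM3, MCM4, MCM5, MCM6, CDC45 and KIAA0101), against 4.46% of all genes. With the prefix as a block 0 of the 10 were called, where 87 of 14036 genes tested were. The same 6 were called in 3DF_50 vs. 2DC_L, against 8.47% of all genes, and the 2DC_L libraries are shared by these comparisons. All 10 fold changes were again negative, with MCM7 in 3DF_50 turning to 0.15 under scaling by library size only. MCM2 crossed the fold limit only in 3DF, at a log2 change of -1.01 (adjusted p = 0.00413 by edgeR, SE 0.18).

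**Figure D3:**
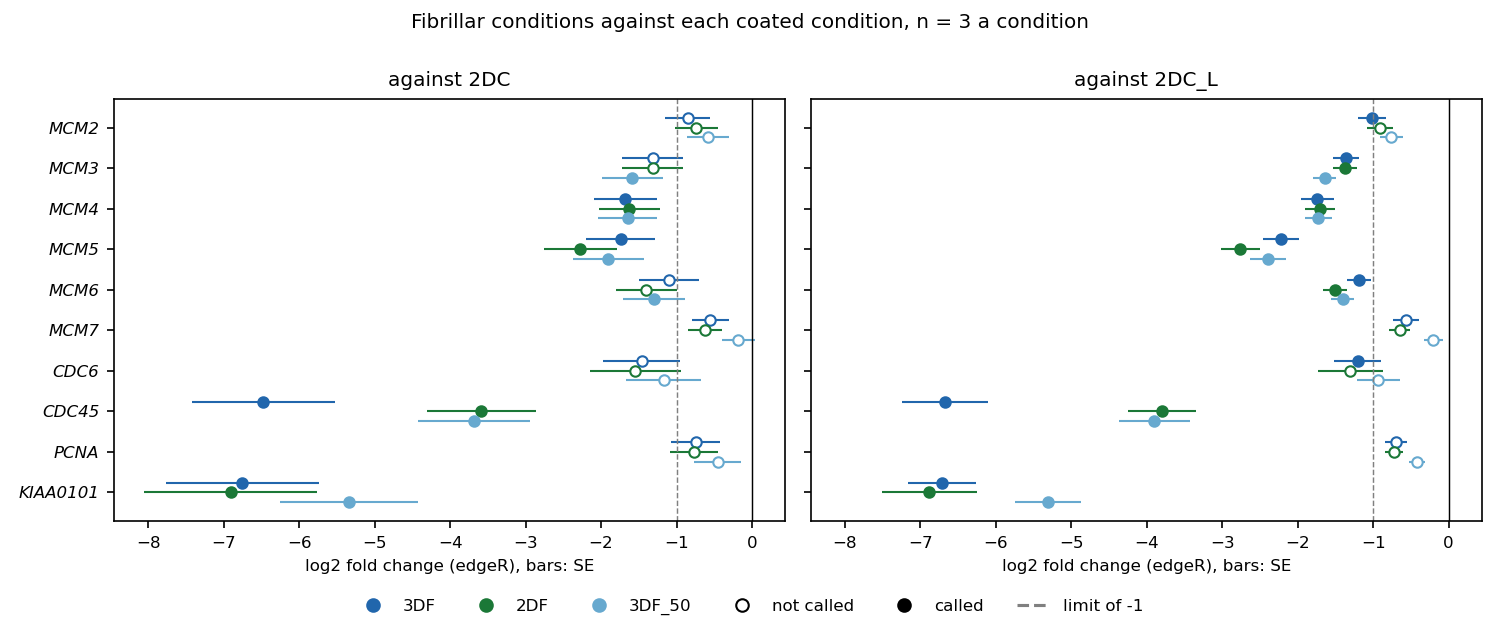
Log2 fold changes from edgeR (horizontal axis, bars are SE) of the 10 replication genes in 3DF, 2DF and 3DF_50 against 2DC (left) and 2DC_L (right), with filled points for DEGs. Every point lies below 0, from MCM7 in 3DF_50 (-0.18 and -0.20, turning to 0.16 and 0.15 with scaling by library size only) to KIAA0101 in 2DF (-6.90 and -6.88), and the bars against 2DC_L are shorter.

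Within the fibrillar conditions no replication gene was a DEG, and 8 of the 10 were tested, since CDC45 and KIAA0101 were too low. In 3DF vs. 2DF, which compares embedded cells with cells on top of the same matrix, edgeR called 0 genes, with 3.78% of all genes called. DESeq2 also called 0, and 0 of the 8 had an unadjusted p under 0.05. MCM5 had the largest log2 fold change, 0.55 (adjusted p = 0.303 by edgeR, SE 0.29). In 3DF_50 vs. 2DF, where 4.45% of all genes were called, edgeR and DESeq2 called 0, and 2 of the 8 had an unadjusted p under 0.05. These were MCM7, at a log2 fold change of 0.47 (adjusted p = 0.0225 by edgeR, SE 0.12), and PCNA, at 0.34 (adjusted p = 0.0717 by edgeR, SE 0.11).

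The cell density in the matrix was compared in 3DF vs. 3DF_50, where edgeR called 0 of the 8 and DESeq2 called 0, against 0.452% of all genes. MCM7 and PCNA were the 2 with an unadjusted p under 0.05, with log2 fold changes of -0.39 (adjusted p = 0.191 by edgeR, SE 0.15) and -0.31 (adjusted p = 0.246 by edgeR, SE 0.13). Omitting the digestion medium was compared in 2DC vs. 2DC_L, where 0.265% of all genes were called. No replication gene was called by edgeR (0 of 10) or DESeq2 (0), and 0 had an unadjusted p under 0.05. Fold changes on the log2 scale ran from -0.50 for MCM5 (SE 0.44) to 0.24 for CDC6 (SE 0.49), which does not show that the 2 conditions were alike. Leaving out 2DC replicate 1 moved the median log2 fold change of the 10 from -0.08 to 0.27, leaving out replicate 3 moved it to -0.58, and neither gave a call. With the prefix of the library names as a block the median was -0.45, all 10 fold changes were negative, and MCM4 and CDC45 passed 0.05 before adjustment but none after it.

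Libraries of different conditions share a prefix in their names (E2, E3 and so on), whose meaning is not given in the sources used here, and comparing libraries with the same prefix holds constant whatever it stands for. The pair of E2 libraries set 2DC replicate 1 against 2DC_L replicate 1: all 10 genes were lower in 2DC, 6 of them at 0.5 times or less, where 0.645% of all genes with a mean of at least 1 FPKM were that low. In the E3 pair of 2DC and 2DC_L, all 10 were lower in 2DC and 0 reached 0.5 times, with 0.385% of all genes that low. The median ratio of the 10 genes was 0.439 in E2 and 0.748 in E3. In each pair with a shared prefix, the share of all genes is over those with a mean of at least 1 FPKM. Those genes were also above 0 in both libraries. CDC6 and CDC45, with means of 0.651 and 0.607 FPKM over the 15 libraries, are under that limit but counted among the 10. The 10 and the share of all genes are thus over unlike sets.

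Fibrillar libraries with the prefix of a coated library were also lower in these genes. In E6, 3DF replicate 1 was at 0.5 times 2DC replicate 3 or less for 10 of 10 genes, with a median ratio of 0.230. Of all genes with a mean of at least 1 FPKM, the set used for each share in these pairs, 8.14% were that low. In E3, 3DF_50 replicate 1 was that low for 6 genes against 2DC replicate 2, where 7.44% of all genes were, and for 8 against 2DC_L replicate 2, where 7.17% were. In E7, set against 2DC_L replicate 3, 3DF replicate 2 was that low for 7 genes, with 5.33% of all genes, and 3DF_50 replicate 3 for 6, with 7.70% of all genes. The exception in direction was MCM7, at 1.02 times in 3DF_50 replicate 1 against 2DC replicate 2. Each ratio is between a pair of single libraries and has no replicate. With the prefix as a block in the fit of all 15 libraries, 8 genes were called in the contrast of fibrillar with coated conditions, MCM2 in addition to the 7 above. Of all genes tested, 661 of 14036 were called lower in that contrast. The 2DF libraries share a prefix with no coated library. In that fit 0 of the 10 genes were called in 2DF vs. 2DC and in 2DF vs. 2DC_L, with all 10 fold changes negative and medians of -1.35 and -1.85. Over all 14036 genes tested, 16 and 87 were called.

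**Figure D4:**
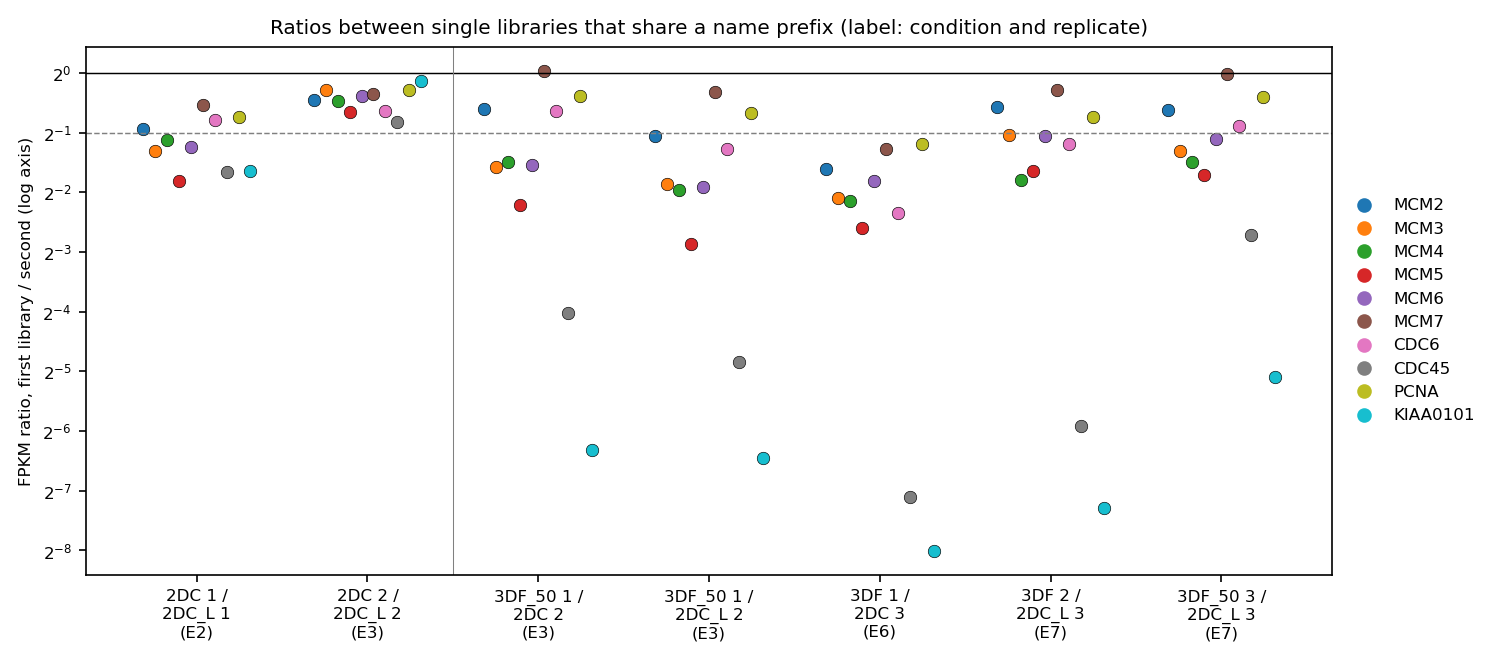
FPKM ratios of the 10 replication genes between pairs of libraries that share a name prefix (log2 axis; the dashed line is 0.5 times, the vertical line separates 2DC over 2DC_L from fibrillar over coated). Apart from MCM7 at 1.02 in the first E3 pair with a fibrillar library, all ratios lie below 1, with median ratios from 0.230 to 0.748 per pair.

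The rest of the replication pathway was described with 10 gene lists of 90 genes, 83 of them in the table and tested in the contrast of fibrillar with coated conditions. Of these, 21 were DEGs lower in fibrillar culture and 0 were higher, with a median log2 fold change of -0.29 over the 83, where 5.85% of all genes tested were called lower. Of the 21, 9 passed the filter on low counts only through the coated libraries: GINS1, GINS3, GINS4, TICRR, CLSPN, E2F1, E2F2, E2F7 and E2F8. Among the factors that activate the helicase, 6 of 10 were called: GINS1, GINS2, GINS3, GINS4, MCM10 and TICRR. The number called differed between the coated conditions, as did the genes that could be tested. In 3DF, 2DF and 3DF_50 vs. 2DC, 1 of 6 was called each time, with median log2 fold changes of 0.11, -0.32 and 0.08. Of all genes, 4.32%, 2.93% and 7.33% were called lower there. Against 2DC_L, 6 of 10, 5 of 9 and 5 of 9 were called, where 5.98%, 4.46% and 8.47% of all genes were called lower. These counts are over different genes and do not show that 2DC and 2DC_L differed. In 2DC vs. 2DC_L, 0 of 10 were called. The helicase activation counts against 2DC were not made without 2DC replicate 1. Over the 10 lists, 9 of 77 genes tested were called lower in 3DF vs. 2DC. In 2DF it was 10 of 77, and in 3DF_50 13 of 77. Without 2DC replicate 1 these became 21 of 82, 20 of 81 and 22 of 81. Of all genes tested without it, 640 of 13800, 435 of 13374 and 1033 of 13543 were called lower. GINS1, a subunit of the GINS complex that joins CDC45 and the MCM ring, fell from 1.61 ± 1.08 FPKM in coated (SD, n = 6) to 0.0553 ± 0.0625 FPKM in fibrillar libraries (SD, n = 9), and its partner GINS4 from 2.06 ± 1.19 to 0.0810 ± 0.0876 FPKM. GINS3 and TICRR, which helps load CDC45, were under 1 FPKM everywhere, with means of 0.319 and 0.250 FPKM in coated libraries. DONSON, also a factor of helicase assembly, had 10.1 ± 0.577 and 10.6 ± 1.14 FPKM and was not called.

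Upstream of the ring, 1 of the 9 genes of origin recognition and licensing was a DEG. It was CDT1, which loads MCM2 to MCM7 together with CDC6, at 4.17 ± 1.61 FPKM in coated (SD, n = 6) and 0.762 ± 0.205 FPKM in fibrillar libraries (SD, n = 9). The most abundant gene of that list, MCMBP, an MCM-binding protein, had 15.2 ± 1.03 and 18.1 ± 2.30 FPKM and was not called.

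At the fork itself, most genes were not called. Of 11 polymerase and primase genes, 1 was called: POLE, the catalytic subunit of the leading-strand polymerase, with 1.34 ± 0.628 FPKM in coated and 0.0771 ± 0.0353 FPKM in fibrillar libraries. POLD2, a subunit of polymerase delta, had 33.5 ± 3.05 and 25.0 ± 3.02 FPKM and was not called. Of 8 clamp loader genes 0 were called, with a median log2 fold change of -0.23. RFC1, the large subunit that loads PCNA, had 23.0 ± 2.62 and 23.1 ± 3.16 FPKM. Among 7 genes of RPA and fork protection, CLSPN and TIMELESS were called, and CLSPN, the checkpoint mediator claspin, had 1.23 ± 0.747 FPKM in coated and 0.0110 ± 0.00959 FPKM in fibrillar libraries. RPA1, the single-strand binding protein, had 36.1 ± 1.91 and 32.6 ± 3.39 FPKM and was not called. In Okazaki fragment processing 1 of 6 was called, the nuclease DNA2, while TOP1 was the most abundant gene not called.

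In nucleotide supply, 2 of 8 were called: RRM2, the S-phase subunit of ribonucleotide reductase, at 20.0 ± 12.3 FPKM in coated and 1.25 ± 0.381 FPKM in fibrillar libraries, and TK1, thymidine kinase, at 12.4 ± 7.05 and 0.297 ± 0.224 FPKM. DUT had 31.2 ± 4.76 and 19.9 ± 2.24 FPKM and was not called. Of the 7 genes of replication-coupled chromatin assembly, 5 were in the table, and the histone chaperone genes CHAF1B and ASF1B were called and DNMT1 was not. Of 17 E2F, RB and G1/S genes, 5 were called: E2F1, E2F2, E2F7, E2F8 and CCNE2. E2F1, an activator of replication genes, had 2.37 ± 1.16 FPKM in coated and 0.0925 ± 0.0801 FPKM in fibrillar libraries, while CDK4 had 49.0 ± 3.73 and 49.7 ± 4.76 FPKM. Of the MCM paralogs outside the ring, MCM8 was called and MCM9 was not. By comparison, 6 of 6 mitotic and proliferation genes were called lower, TOP2A, CDK1, CCNB1 and MKI67 among them. Of all genes tested, 5.85% were called lower. The highest fibrillar counts were 4 for CDK1, 12 for MKI67, 15 for CCNB1 and 17 for BUB1. CDK1 and MKI67 passed the low-count filter only through the coated libraries. Like them, CCNB1 and BUB1 were too low to be tested in any comparison within the fibrillar conditions.

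**Figure D5:**
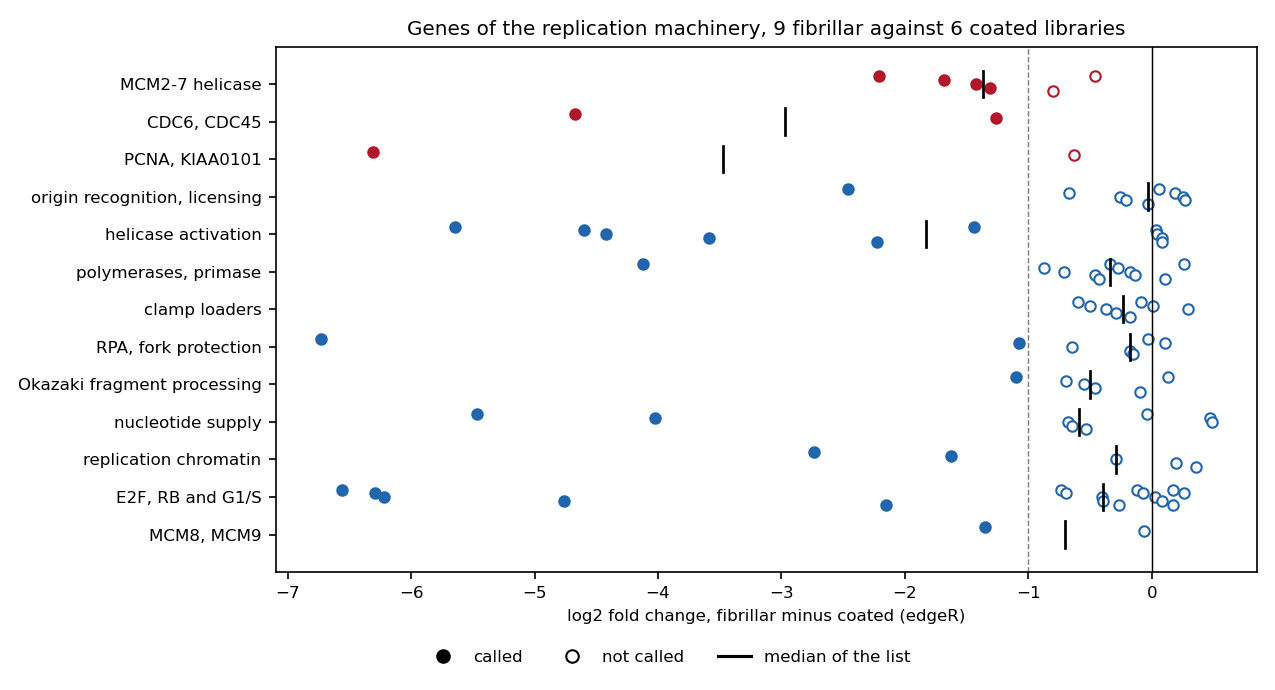
Log2 fold changes (edgeR, fibrillar minus coated, 9 and 6 libraries) of the replication genes (red) and of the genes of 10 replication lists (blue); filled points are DEGs, the dashed line is the fold limit and short black lines are medians. The helicase activation list has 6 of 10 genes called with a median of -1.83, 4 of them past the low-count filter only through coated libraries, and the clamp loaders have 0 of 8 with a median of -0.23.

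The 8 genes whose level followed the mean of the 10 replication genes most closely over the 15 libraries were ranked by Pearson correlation of log2(FPKM + 0.1), among 9680 genes with a mean of at least 1 FPKM. They were DTYMK (0.961), HELLS (0.960), CDT1 (0.952), FNIP2 (0.951), RACGAP1 (0.948), NCAPG2 (0.946), ZNF367 (0.944) and RRM2 (0.943). Within the 6 coated libraries their correlations ran from 0.812 to 0.989. Within the 9 fibrillar libraries they ran from -0.650 for FNIP2 to 0.589 for RACGAP1, and were also negative for RRM2, ZNF367 and HELLS. DTYMK, thymidylate kinase, had 14.7 FPKM in coated and 7.37 FPKM in fibrillar libraries on average, and HELLS, a chromatin remodeler, 3.04 and 0.970 FPKM. With a pseudocount of 1, 4 of the 8 remained among the first 8, and with rank correlation 0 did, so that the choice of these 8 rests on the scale used.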

How the data were processed

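Bulk RNA-seq of rabbit corneal keratocytes was analysed in 15 libraries, 3 for each of 5 conditions read from the labels. Counts deposited by the authors are unnormalized reads per protein-coding gene, made with HISAT2 2.0.5 on oryCun2 and featureCounts 1.5.0-p3. The authors' deposited FPKM values are these counts divided by gene length and a library size set by the authors, 0.921 to 1.24 times the sum of the counts. All columns of samples were used. Levels are FPKM, and positions are those of the deposited tables.

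The 10 replication genes, the gene lists and the alternatives were chosen with earlier results of these data known. Pairs of conditions were tested on counts with edgeR 4.0.16 (R 4.3.3), fitting the 2 conditions compared, after TMM scaling and the filterByExpr step (minimum count 10). The quasi-likelihood F test was two-sided. The contrast of fibrillar with coated conditions is from a fit with a mean for each of the 5 conditions, weighting conditions equally. P-values were adjusted by Benjamini–Hochberg over all genes tested, and the SE is the size of the log2 fold change divided by the square root of F. The study used DESeq2 for its comparisons, which is an alternative here (1.42.0), as is limma 3.58.1 on the log2 scale of FPKM with a pseudocount of 0.1 or 1. Other alternatives were other scalings and filters, all conditions in 1 fit, blocks for the replicate number or the library prefix, no limit on the fold change, and leaving out each library. Counts of pathway genes under them, and values without 2DC replicate 1 for levels, ratios and correlations, were added after the data were seen. Exact 95% intervals of count ratios are Clopper-Pearson and cover counting error only. Scripts were tested on simulated data. Python 3.11.15 with numpy 2.4.6, pandas 2.3.3, scipy 1.17.1 and matplotlib 3.10.9 was also used.

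Named beside the 10 genes are, for each list, up to 4 DEGs with the largest change in that contrast and the most abundant gene not called, the 8 genes most correlated with the mean of the 10, and MKI67. GINS2, MCM10, CCNE2, BUB1 and TRIP4 were named after their values were seen. The study describes the replicates of a condition as separate experiments. In none of the 10 pairs of conditions were all 3 correlations of same-number libraries, taken on deviations from the condition means, over 0.1. They were 0.315, 0.0780 and 0.117 for 2DC vs. 2DC_L and 0.128, 0.0698 and 0.226 for 3DF_50 vs. 2DC_L, and lower in the other pairs on average. RefSeq symbols were found for 9 of the 10 genes, and the deposited description of KIAA0101 names PCLAF. Sequences are not analysed here.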

Additional observations from a re-analysis of the deposited data

How the results depend on the processing

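In the contrast of fibrillar with coated conditions, 7 replication genes were called and 6 to 7 when a library was left out, 6 without 2DC replicate 3. Against 2DC the counts moved more. For 3DF vs. 2DC the count of 4 became 7 with DESeq2, with all 5 conditions in the fit and with the prefix block, 2 with limma at either pseudocount, and 2 to 9 with a library left out. For 2DF vs. 2DC the count of 4 became 7 with all 5 conditions in the fit, 1 with limma on log2(FPKM + 1), 0 with the prefix block, and 1 to 8 with a library left out. With the prefix block 2DF vs. 2DC_L also went from 6 to 0, and 2DF is linked to the coated conditions there only through 3DF_50. All 10 fold changes stayed negative in both, with the median moving from -1.47 to -1.35 and from -1.44 to -1.85, while the calls over all genes fell from 658 to 16 and from 972 to 87. For 3DF_50 vs. 2DC the count of 6 became 3 to 7 with a library left out. Without the limit on the fold change, 1 gene was called in 3DF_50 vs. 2DF. The correlations of same-number libraries did not meet the rule for pairing, that every one is over 0.1. With the replicate block the counts were 5 in 3DF vs. 2DC, 6 in 2DF vs. 2DC, 7 in 3DF vs. 2DC_L and 7 in the contrast.

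The 21 pathway genes called lower became 13 with the prefix block, 11 with limma on log2(FPKM + 1) and 41 without the fold limit. Direction turned in 4 of 1270 values for single genes, of which 62 lost and 52 gained a call: MCM7 in 3DF_50 with scaling by library size only, to 0.16 against 2DC and 0.15 against 2DC_L, and, without 2DC replicate 3, MCM7 (0.12) and PCNA (0.0088) in 3DF_50 vs. 2DC. With a library left out, MCM7 in that comparison ran from -0.40 to 0.12 and PCNA from -0.76 to 0.0088. Of the 8 most correlated genes, 4 were kept with a pseudocount of 1, 2 at a mean of at least 5 FPKM, 0 with Spearman correlation and 3 to 7 with a library left out. The causes were not tested. Counts under 10 limit CDC45 and KIAA0101 in fibrillar libraries.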
